A study of Bos taurus with 12 samples.

Results

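The comparison covers 6 of the 12 arrays of a study on bovine blastocysts, the 3 arrays of the group IFOT-M and the 3 arrays of the group VIVO. All arrays that carry these 2 group labels were taken, and all probe sets were followed. The study asked how the source of the oocyte and the surroundings of maturation and early development mark the transcriptome of the expanded blastocyst. IFOT-M oocytes came from slaughterhouse ovaries, were matured in vitro and were then placed by intrafollicular oocyte transfer into the preovulatory follicle of synchronised Simmental heifers. The heifers were inseminated, so fertilisation and development up to the blastocyst took place in vivo. One label of the IFOT-M samples speaks of dominant follicles, whereas the protocols and the study's methods give preovulatory follicles. VIVO blastocysts, the control, came from superovulated Simmental heifers inseminated with semen of the same bull, without any step outside the animal before flushing. The remaining groups were IFOT-IM, in which immature oocytes were transferred into dominant follicles, and VITRO, in which maturation, fertilisation and culture were all in vitro, with 3 arrays each.

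Between IFOT-M and VIVO the origin of the oocyte, its maturation in vitro, the transfer and the superovulation of the donor differ together and cannot be told apart. A recipient's own embryo can be flushed with the transferred ones, and the study took out the most advanced embryo for this reason. For each array 15 ng of RNA from a separate pool of 15 to 20 expanded blastocysts entered an amplifying target preparation, so p-values measure the spread between pools. Levels are deposited values on a log2 scale, called log2 signal below, and each difference is IFOT-M minus VIVO. FDR is limma's p-value after Benjamini-Hochberg adjustment over the 24417 probe sets tested. A gene counts as lower or higher at an FDR below 0.1, and a DEG also had a fold change above 2.

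A blastocyst consists of an outer trophectoderm, which later forms the placenta, and an inner cell mass that gives rise to epiblast and hypoblast. It pumps fluid into its cavity, divides fast and builds membrane. Cholesterol is made from acetyl-CoA through mevalonate, squalene and lanosterol, and the enzymes of this route are transcribed together under the factor SREBP2 when the sterol content of the endoplasmic reticulum is low. The related factor SREBP1 acts on enzymes of fatty acid synthesis and desaturation. Serine and asparagine synthesis, several amino acid carriers and several aminoacyl-tRNA synthetases are known targets of ATF4, a factor that cells use when amino acids run short.

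In total 343 probe sets were DEGs, of which 220 were lower and 123 were higher in IFOT-M than in VIVO blastocysts, 0.901% and 0.504% of those tested. The direction depended on whether a probe set named a gene. Among DEGs that carry 1 symbol, 144 fell and 15 rose, while among those that carry none, 63 fell and 105 rose. In 339 of the 343 DEGs the 3 IFOT-M arrays lay apart from the 3 VIVO arrays, which was also the case for 15.4% (below) and 16.1% (above) of all probe sets tested. All 159 DEGs with 1 symbol lay apart in this way, so lack of overlap in a DEG named below adds nothing to its call. At any fold change 1678 probe sets (6.87%) were lower and 783 (3.21%) were higher. The arrays of both groups repeated about equally well, with a median SD per probe set of 0.150 in IFOT-M and 0.145 in VIVO. After quantile normalization of the deposited values 47.2% of 250 DEGs were lower, and after cyclic loess 42.4% of 330, against 64.1% of the 343.

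The difference between the groups changed with the level of expression. Probe sets were therefore set against others of the same mean level over the 6 arrays, in 20 equal bins. In the 9 lowest bins the median difference lay between 0.09 and 0.11, and in the highest 3 bins it was -0.20, -0.23 and -0.16. The share of probe sets lower in IFOT-M was 0% in the lowest bin and 24.0% in the highest. In the highest bin 150 probe sets were higher, and 115 of these carried no gene symbol. How the spread of the deposited arrays came to differ was not tested. A gene is described below by its own difference, from which the median of its bin was not taken off. A list is described by the count that the bins of its members give on average. Each bin holds probe sets with and without a symbol, while the lists hold only genes with 1 symbol. Of 17553 probe sets with 1 symbol 1401 were lower and 332 higher, and of 6223 with none 206 and 423. For the lists the bins can therefore give too few lower and too many higher. Bin counts come from the deposited values with all 6 arrays, so counts from other normalizations or fits have no bin count beside them.

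**Figure D1:**
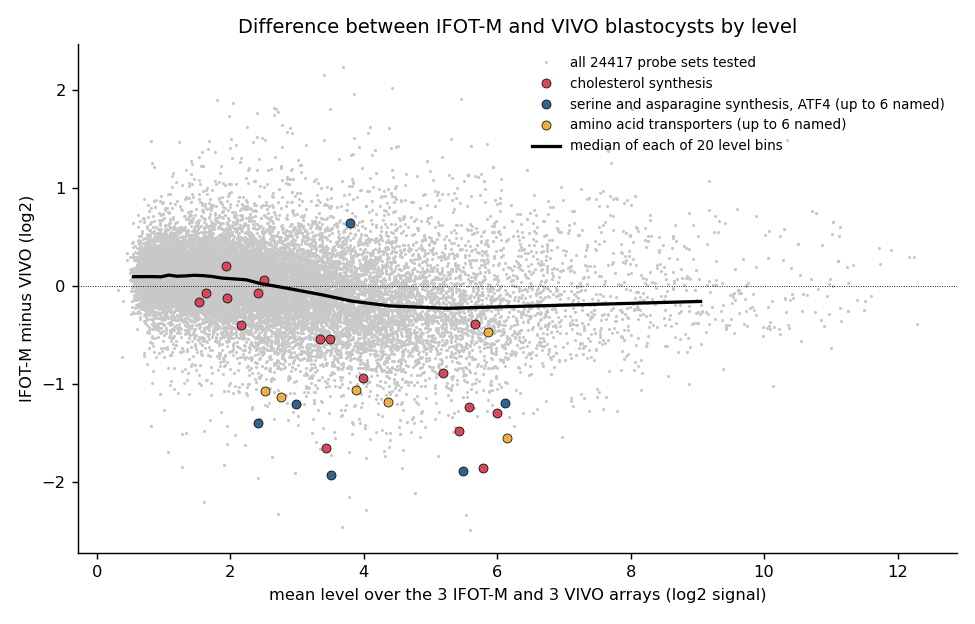
Difference between IFOT-M and VIVO (log2, vertical axis) against the mean level over the 6 arrays (log2 signal, horizontal axis) for all 24417 probe sets tested (grey), with the median of each of 20 level bins (line) and the named genes of 3 lists (colours). The line lies near 0.10 at low levels and reaches -0.23 in the bin below the highest. The sterol and amino acid genes that were lower in IFOT-M lie well under it, while DDIT3, which was higher, lies above it.

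Of the enzymes of cholesterol synthesis, FDFT1, SQLE, CYP51A1, MSMO1, NSDHL, SC5D and DHCR7 were down-regulated in IFOT-M blastocysts. Of 22 listed genes of cholesterol synthesis 17 were measured on a probe set of their own, 7 were lower and 0 higher, and the level bins of these 17 give 2.26 lower. Over all gene symbols 8.03% were lower and 1.87% higher. The median difference of the list was -0.54, against 0.05 over all probe sets tested. As the arrays measure pools of whole embryos, fewer cells of a type and less RNA per cell cannot be told apart.

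MSMO1, which removes methyl groups from the sterol ring, had 4.96, 4.97 and 4.68 log2 signal in IFOT-M blastocysts, against 6.69, 6.67 and 6.81 in VIVO blastocysts. This difference of -1.85 (standard error 0.21, FDR = 0.000472) was the widest of the 17. CYP51A1, the lanosterol demethylase, stood at 2.69, 2.43 and 2.69 in IFOT-M and at 4.46, 4.32 and 4.0 in VIVO, a difference of -1.65 (FDR = 0.000341). SQLE, the squalene epoxidase, had 4.95, 4.49 and 4.63 in IFOT-M and 6.11, 6.10 and 6.30 in VIVO. It was 2.79-fold lower (FDR = 0.000853), and no IFOT-M array reached the lowest VIVO array in any of these genes. SC5D, the lathosterol desaturase, had 5.44, 5.35 and 5.27 in IFOT-M and 6.61, 6.66 and 6.66 in VIVO, with a difference of -1.29 (FDR = 0.000131). DHCR7, which carries out a last reduction to cholesterol, averaged 4.97 ± 0.13 in IFOT-M and 6.20 ± 0.04 in VIVO (SD, n = 3 each), with a difference of -1.23 (limma FDR = 0.00296). FDFT1, the squalene synthase, and NSDHL, a sterol dehydrogenase, differed by -0.89 and -0.94. All 7 genes lay in the lowest 10% of their level bin, whose medians were between -0.23 and -0.09.

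The remaining 10 members did not pass the test. IDI1 and EBP, which isomerise the isoprene unit and the sterol ring, stood at -0.54 (FDR = 0.112) and -0.39 (FDR = 0.138), and for both the IFOT-M arrays lay below all VIVO arrays. LSS, which closes the ring of lanosterol, was at 1.60 ± 0.10 in IFOT-M and 1.67 ± 0.13 in VIVO (SD, n = 3 each), a low level on these arrays, and MVD and MVK, enzymes of the mevalonate steps, stood at -0.07 and 0.06. The other 5 were GGPS1, LBR, PMVK, HSD17B7 and TM7SF2, and for members that missed the threshold no equality is shown. Of 20 measured genes of sterol sensing and transport, 4 were lower, where the bins give 1.84. INSIG1, which holds SREBPs in the endoplasmic reticulum and is itself switched on by them, had 2.37, 2.44 and 2.59 in IFOT-M and 2.91, 3.46 and 3.06 in VIVO (FDR = 0.0216). NPC1 and NPC2, which release cholesterol from the lysosome, differed by -0.77 and -0.94. SREBF2, the gene of SREBP2, stood at -0.49 (FDR = 0.115).

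**Figure D2:**
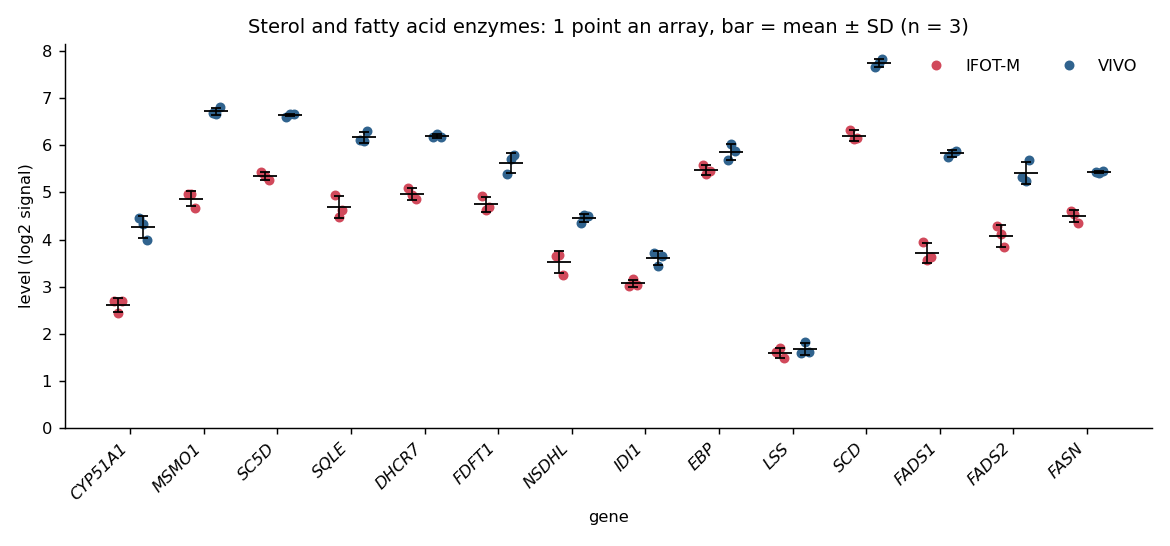
Level (log2 signal) of enzymes of sterol and fatty acid synthesis in each of the 3 IFOT-M arrays (left of each pair) and the 3 VIVO arrays (right), with mean and SD as bars. For MSMO1, SQLE, SCD and FADS1 the IFOT-M points lie far below the VIVO points, whereas those of LSS overlap at about 1.6.

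These sterol enzymes separated IFOT-M from VITRO blastocysts as well. The 3 comparisons with VIVO share the same VIVO arrays, so their differences are given side by side, and the groups were compared directly for the test. MSMO1 differed from VIVO by -1.85 in IFOT-M, by -2.59 in IFOT-IM and by -0.78 in VITRO. SQLE stood at -1.48, -2.01 and -0.25 in the same order, and DHCR7 at -1.23, -1.27 and -0.17. In the direct comparison 9 of the 17 genes were lower in IFOT-M than in VITRO and 1, GGPS1, was higher, against 8.38% and 12.9% of all probe sets tested. IFOT-M minus VITRO was -1.23 for SQLE (FDR = 0.00185), -1.07 for MSMO1 (FDR = 0.00671), -1.06 for CYP51A1 (FDR = 0.00304) and -1.06 for DHCR7 (FDR = 0.00422). IDI1 and EBP, which did not pass against VIVO, were lower in IFOT-M than in VITRO by -0.71 and -0.62 (FDR = 0.0248 and 0.0143). Between IFOT-M and IFOT-IM limma called 0 probe sets at an FDR below 0.1, with 1855 at an unadjusted p below 0.05. IFOT-IM replicate 1 stood apart from its group, with an array weight of 0.49 against 1.24 and 1.10. Without it limma also called 0 probe sets, with 1131 at an unadjusted p below 0.05, and the differences of IFOT-IM from VIVO were -2.29 for MSMO1, -1.79 for SQLE and -1.05 for DHCR7.

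**Figure D3:**
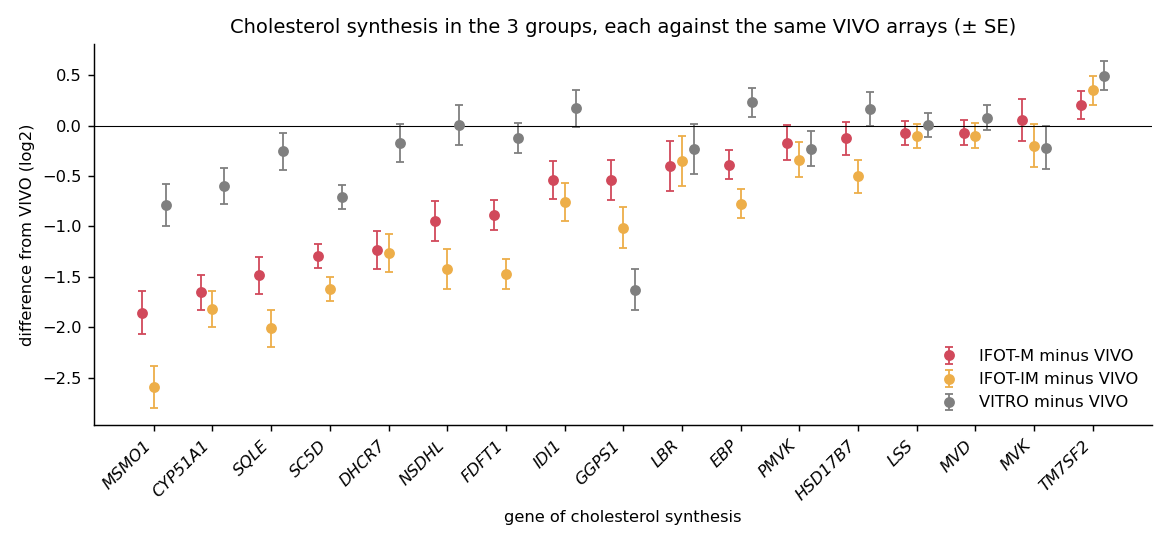
Differences from VIVO (log2, ± standard error) for the 17 measured genes of cholesterol synthesis in IFOT-M, IFOT-IM and VITRO, all set against the same 3 VIVO arrays. For MSMO1 the points lie at -1.85, -2.59 and -0.78 and for SQLE at -1.48, -2.01 and -0.25, while GGPS1 is lowest in VITRO at -1.63.

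Genes of fatty acid synthesis and desaturation were lower as well, though not all. Of 26 measured genes 13 were lower and 0 higher, where the level bins give 3.42 lower, and the median difference was -0.42. FADS1, a desaturase of polyunsaturated fatty acids, had 3.95, 3.56 and 3.62 in IFOT-M blastocysts and 5.75, 5.85 and 5.88 in VIVO blastocysts. It was 4.33-fold lower (difference -2.11, standard error 0.30, FDR = 0.00188). SCD, which makes oleate from stearate, had 6.33, 6.13 and 6.15 in IFOT-M and 7.66, 7.75 and 7.83 in VIVO, a difference of -1.54 (FDR = 0.000271), and its other probe set was at -1.20. In both genes all IFOT-M arrays were below all VIVO arrays. FADS2 and FASN, the fatty acid synthase, differed by -1.34 and -0.93, and HACD2 and ACSL3, which elongate and activate fatty acids, by -1.05 and -0.75. FADS1 and SCD were also lower in IFOT-M than in VITRO (-1.03, FDR = 0.0387 and -0.80, FDR = 0.00735), whereas FADS2 and FASN did not pass that test (FDR = 0.596 and 0.139).

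Further lipid routes held fewer or smaller changes. Of 23 sphingolipid genes 9 were lower, where the bins give 2.90, among them DEGS1, which makes ceramide, at -1.06 and UGCG, which makes glucosylceramide, at -0.74, while the list's median was -0.15. After quantile normalization 6 genes of this list were lower, and 5 to 6 without any 1 array. AGPS, which forms the ether bond of plasmalogens, had 3.15, 3.09 and 2.81 in IFOT-M and 4.30, 4.12 and 4.56 in VIVO (difference -1.31, FDR = 0.000472). Of 13 genes of steroid hormone synthesis 5 were lower and 1 higher, where the bins give 1.76 lower, and 3 were lower after quantile normalization and 3 to 4 without any 1 array. HSD3B1, which makes progesterone, was lower by -1.39, CYP11A1, which opens steroid synthesis, by -0.54 and HSD17B11 by -0.91. HSD17B1, which makes estradiol from estrone, was higher by 0.47 (FDR = 0.084), a call that was lost after quantile or loess normalization, in the unmoderated model, with the replicate block and without any 1 array. Of 31 genes of lipid droplets and fatty acid oxidation 4 were lower, where the bins give 2.45, and 1 to 3 without any 1 array, with a median of 0.08.

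The 3 enzymes of serine synthesis and the asparagine synthetase were down-regulated in IFOT-M blastocysts. Among 24 measured genes of the ATF4 list 6 were lower and 1 higher, where the bins give 2.36 lower, and the median was -0.30. PHGDH, PSAT1 and PSPH act in turn to make serine from a glycolytic intermediate. PSPH had 2.64, 2.53 and 2.46 in IFOT-M blastocysts and 4.38, 4.38 and 4.65 in VIVO blastocysts, a difference of -1.93 (standard error 0.13, FDR = 1.56e-05). PHGDH had 1.79, 1.55 and 1.81 in IFOT-M and 3.26, 3.18 and 2.92 in VIVO (difference -1.40, FDR = 0.00155). PSAT1 had 2.52, 2.33 and 2.32 in IFOT-M and 3.32, 3.80 and 3.65 in VIVO (difference -1.20, FDR = 0.000651). None of the 3 genes overlapped between the groups. ASNS, the asparagine synthetase, had 4.64, 4.37 and 4.64 in IFOT-M and 6.45, 6.45 and 6.39 in VIVO, which is 3.68-fold lower (FDR = 0.00014). MTHFD1L, which makes formate from serine carbon in mitochondria, differed by -1.19, and its other probe set by -0.80. DDIT3, a stress gene that ATF4 can switch on, went the other way with 4.08, 4.2 and 4.08 in IFOT-M and 3.58, 3.48 and 3.39 in VIVO (difference 0.64, FDR = 0.0163).

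Some carriers of amino acids and some enzymes that charge tRNA were lower too. Of 31 measured amino acid transporters 13 were lower and 0 higher, where the bins give 2.86, and the count was 6 after quantile normalization and 5 to 8 when any 1 array was left out. SLC38A2, a carrier of small neutral amino acids, had 5.31, 5.35 and 5.49 in IFOT-M and 6.82, 6.95 and 7.01 in VIVO (difference -1.55, FDR = 0.000326). SLC7A5, the leucine carrier, had 3.77 in each IFOT-M array and 4.98, 4.95 and 4.93 in VIVO (difference -1.18, FDR = 9.5e-05). The groups stood clear of each other in both. SLC1A4, which carries serine, SLC38A11 and SLC43A2 differed by -1.07, -1.14 and -1.06, and the last of these did not pass in an unmoderated model of the 2 groups. Of 15 measured cytosolic aminoacyl-tRNA synthetases 8 were lower and 0 higher, where the bins give 3.06, and without any 1 array 4 to 6 were lower. GARS1, which charges glycine tRNA, had 4.36, 4.13 and 4.16 in IFOT-M and 5.55, 5.46 and 5.53 in VIVO, a difference of -1.29 (FDR = 0.000131). TARS1 and IARS1, for threonine and isoleucine, stood at -0.95 and -0.87.

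**Figure D4:**
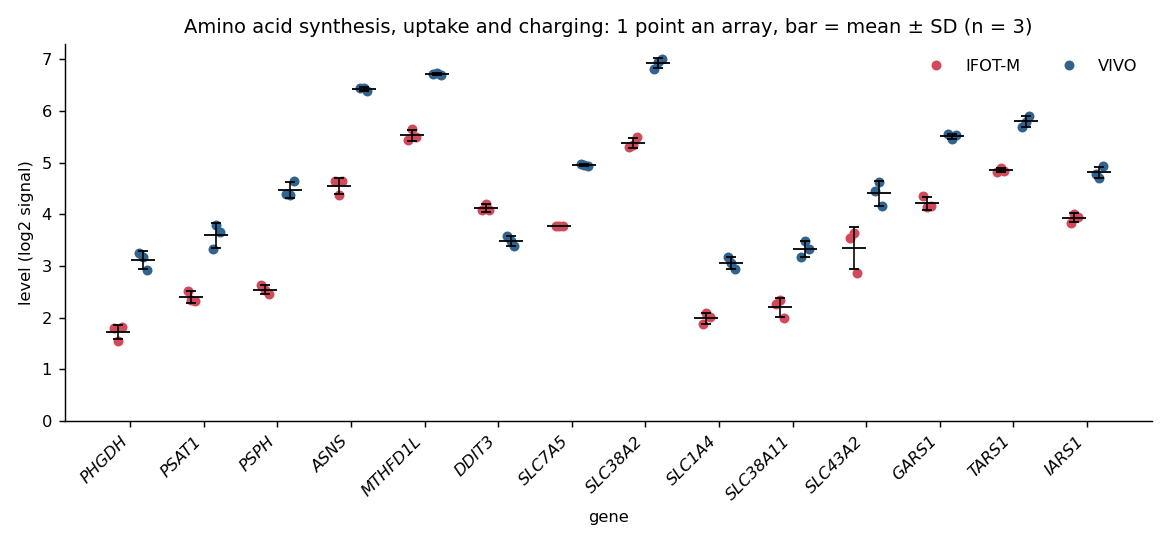
Level (log2 signal) of genes of serine and asparagine synthesis, amino acid uptake and tRNA charging in each IFOT-M array (left of each pair) and each VIVO array (right), with mean and SD as bars. All genes shown are lower in IFOT-M except DDIT3, which averaged 4.12 in IFOT-M and 3.48 in VIVO.

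In contrast to the sterol enzymes, several of these amino acid genes missed the threshold between IFOT-M and VITRO. ASNS averaged 4.55 in IFOT-M and 4.66 in VITRO (FDR = 0.706), PHGDH 1.72 in both (FDR = 0.997) and SLC38A2 5.38 and 5.32 (FDR = 0.833). PSPH and PSAT1 were lower in IFOT-M than in VITRO, by -0.43 (FDR = 0.04) and -0.40 (FDR = 0.0804), and MTHFD1L and DDIT3 did not pass. SLC7A5 was higher in IFOT-M than in VITRO by 0.64 (FDR = 0.00259).

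Many genes of the secretory route were lower. Of 30 genes of glycosylation and GPI anchors 12 were lower and 0 higher, with 4.02 from the bins. ALG6, which adds glucose to the sugar chain for N-glycosylation, had 2.42, 2.42 and 2.47 in IFOT-M and 3.60, 3.63 and 3.69 in VIVO (FDR = 9.5e-05). TMEM165, a Golgi ion carrier needed for glycosylation, was lower by -1.43, and CD59, a GPI-anchored inhibitor of complement, by -1.08. Of 34 genes of vesicle traffic 13 were lower and 1 higher, where the bins give 5.87 lower. TMEM59, a Golgi membrane protein, had 3.28, 3.04 and 3.15 in IFOT-M and 4.96, 5.09 and 4.69 in VIVO (difference -1.76, FDR = 7.19e-05), without overlap. UNC50 and YIPF6, proteins of the Golgi membrane, stood at -1.16 and -1.23. VAMP7, a fusion protein of late endosomes, was at -1.03 on the probe set with the higher signal and at 0.01 (FDR = 0.986) on its other probe set, so its probe sets disagree. Of 37 genes of the lysosome and autophagy 15 were lower and 1 higher, where the bins give 6.32 lower, but 7 were lower after quantile normalization and 6 to 12 without any 1 array. CLN3, a lysosomal membrane protein, stood at -1.39, MCOLN2, a channel, at -1.12, and ATP6AP2, an accessory protein of the proton pump, at -1.09.

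Among cell cycle genes the lower ones were mostly those of mitosis. Among the 43 G2 and mitosis genes measured, 20 fell and 0 rose, where the bins give 7.49 lower, and the median was -0.47. Of 45 genes of G1, S phase and replication 9 were lower, close to the 6.68 of their bins, with a median of -0.12, and 5 to 8 were lower without any 1 array. STIL, needed for centriole duplication, had 3.56, 2.91 and 2.92 in IFOT-M and 4.34, 4.62 and 4.65 in VIVO (difference -1.41, FDR = 0.000936). CENPI, a protein of the centromere, had 3.52, 3.59 and 3.75 in IFOT-M and 4.62, 4.97 and 4.84 in VIVO (difference -1.19, FDR = 0.000853). PBK, a mitotic kinase, NCAPG, a condensin subunit, and BUB1B, a checkpoint kinase, were lower by -1.03, -0.96 and -0.82. The groups did not overlap in any of these genes. CCNE2, a cyclin of S phase entry, was the G1 gene with the smallest FDR (difference -1.11, FDR = 0.000948). Of 43 genes of nuclear transport 17 were lower, where the bins give 7.08, with IPO7, an importin, at -1.19, but 7 were lower after quantile normalization and 6 to 11 without any 1 array.

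**Figure D5:**
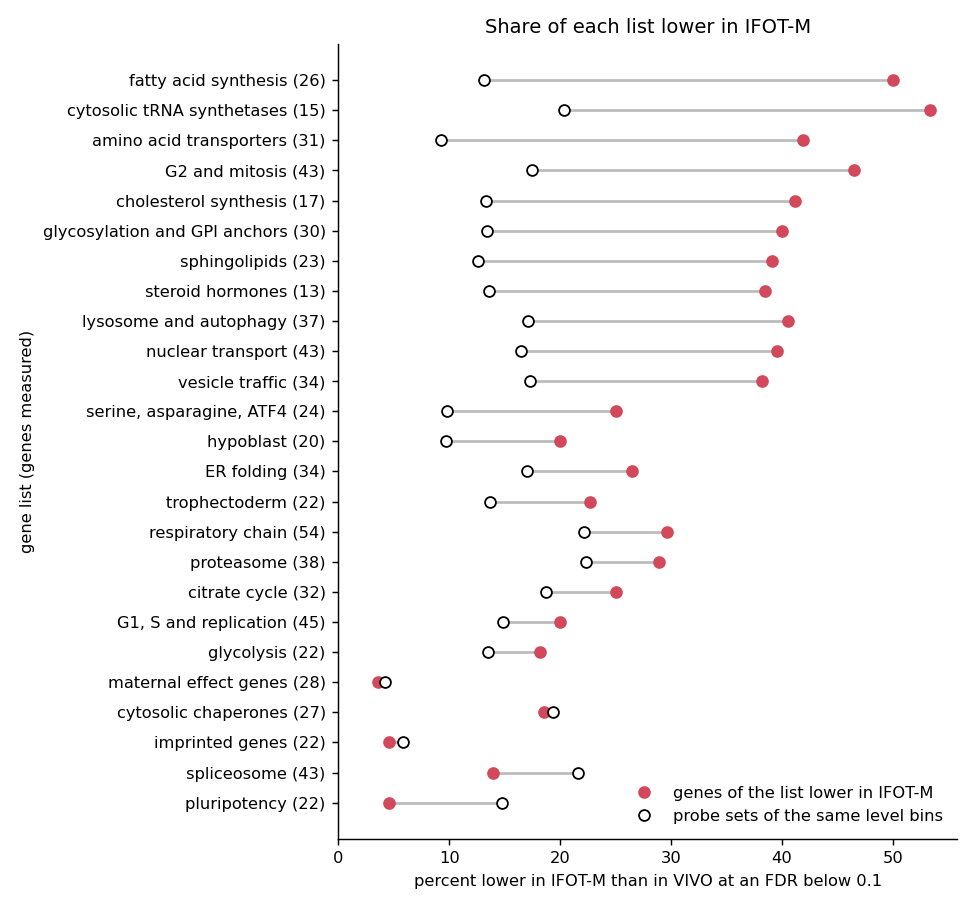
Percent of the measured genes of each list that were lower in IFOT-M than in VIVO at an FDR below 0.1 (filled) and the mean percent lower in the level bins of the same genes (open), with the number of genes measured in brackets. Fatty acid synthesis stands at 50.0% against 13.1% and cholesterol synthesis at 41.2% against 13.3%, whereas the proteasome is at 28.9% against 22.3% and the spliceosome at 14% against 21.6%.

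In other housekeeping lists the counts lay nearer to those of the bins. Of 38 proteasome genes 11 were lower with 8.47 from the bins, of 54 genes of the respiratory chain 16 with 12, of 32 genes of the citrate cycle 8 with 5.99, and of 43 spliceosome genes 6 with 9.3. Without any 1 array these counts were 5 to 8 for the proteasome, 10 to 15 for the respiratory chain, 3 to 6 for the citrate cycle and 4 to 5 for the spliceosome. The respiratory chain had 26 lower genes with only the IFOT-M and VIVO arrays fitted and 29 with array weights. Single members stood out within them. DLD, a subunit that pyruvate dehydrogenase and its relatives share, had 4.64, 4.52 and 4.67 in IFOT-M and 5.96, 5.90 and 5.90 in VIVO (difference -1.31, FDR = 0.000109). PPA1, a pyrophosphatase, had 3.65, 3.60 and 3.42 in IFOT-M and 5.14, 5.19 and 5.26 in VIVO (difference -1.64, FDR = 0.000326). Both were clear of overlap. CMC2, linked to cytochrome oxidase assembly, was at -1.69, and its other probe set at -0.88. Of 27 measured genes of antioxidant defense 6 were lower and 0 higher, where the bins give 3.75 lower, with a median of -0.03. Without any 1 array 3 to 5 of them were lower, and after cyclic loess 5 were lower and 4 higher. NFE2L2, the regulator of antioxidant genes, was lower by -0.98, and GPX4, which reduces lipid peroxides, by -0.72.

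The largest falls among genes with a symbol included matrix and calcium-binding proteins. NID2, a nidogen of basement membranes, had 2.48, 2.58 and 2.29 in IFOT-M blastocysts and 4.94, 4.88 and 4.91 in VIVO blastocysts. It was 5.49-fold lower (difference -2.46, standard error 0.16, FDR = 1.56e-05), and it was also lower in IFOT-M than in VITRO (-0.80, FDR = 0.00883). NID1 was lower by -0.63. S100A2, a calcium-binding protein of epithelia, had 4.38, 4.32 and 4.37 in IFOT-M and 6.56, 6.62 and 6.90 in VIVO, which is 5.05-fold lower (FDR = 0.000373), and again lower than in VITRO (-1.13, FDR = 0.0125). ACTC1, an actin of heart muscle, had 4.41, 3.96 and 4.35 in IFOT-M and 5.94, 5.80 and 6.19 in VIVO (difference -1.74, FDR = 0.00569). PAGE4, which was on the list of trophectoderm genes, had 3.78, 3.71 and 3.88 in IFOT-M and 5.25, 5.43 and 5.23 in VIVO (difference -1.51, FDR = 7.28e-05). The groups stood apart in each of them, as in all 159 DEGs with 1 symbol. LOC768028, for which RefSeq gives the synonym BEX2, had 0.78, 1.48 and 1.20 in IFOT-M and 3.13, 2.51 and 2.64 in VIVO, and VITRO averaged 3.12.

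Of the lineage markers measured, GATA3 and CDX2 passed the test. Of 10 trophectoderm markers 2 were lower, where the bins give 1.54, GATA3 with 4.92, 4.70 and 4.78 in IFOT-M and 5.28, 5.55 and 5.62 in VIVO (FDR = 0.0195), and CDX2 with 1.85, 2.29 and 1.82 in IFOT-M and 2.31, 2.98 and 3.02 in VIVO (FDR = 0.0436). GATA3 did not pass after quantile normalization (-0.47, FDR = 0.11), and CDX2 did not pass without IFOT-M replicate 1, IFOT-M replicate 3, VIVO replicate 2 or VIVO replicate 3. The keratins KRT8 and KRT18 stood at -0.06 and 0.10. The mean level of the 10 markers was 4.02 to 4.04 in the IFOT-M arrays and 4.09 to 4.32 in the VIVO arrays, but their summed linear signals overlapped, at 623 to 699 and 613 to 697. Of the wider lists 5 of 22 trophectoderm genes and 4 of 20 hypoblast genes were lower, where the bins give 3.0 and 1.93. Of 12 markers of the epiblast and inner cell mass and of 10 markers of the hypoblast 0 passed limma's FDR of 0.1. The bins give only 1.79 lower and 0.63 higher for these 12 and 0.94 and 0.48 for these 10. POU5F1 averaged 5.73 ± 0.04 in IFOT-M and 5.82 ± 0.20 in VIVO, SOX2 6.10 ± 0.03 and 6.48 ± 0.12, and NANOG 3.84 ± 0.04 and 3.39 ± 0.10 (SD, n = 3 each). For NANOG and SOX2 the arrays of the groups did not overlap, although the adjusted values missed the threshold (limma FDR = 0.179 and 0.119). The summed linear signal of the 12 epiblast and inner cell mass markers was 285 to 294 in IFOT-M and 317 to 328 in VIVO. Their mean levels overlapped, at 3.77 to 3.80 and 3.72 to 3.84. The median difference of these 12 went the other way from the sum, at 0.03, and 0.09 with bin medians taken off. The hypoblast markers averaged 3.54 to 3.55 in IFOT-M and 3.59 to 3.62 in VIVO, with overlapping sums of 827 to 871 and 861 to 912. APOA1, a lipid carrier on the hypoblast list, was lower by -0.99 (FDR = 0.0154), and KIT, a receptor of the germ line and early embryo, by -0.83 (FDR = 0.00304).

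Markers of cells that could come along with the embryos differed in level. Of 10 cumulus and granulosa markers 8 lay below the median level of all probe sets and 0 were called, where the bins give only 0.09 lower and 0.16 higher. Their signals summed on the linear scale to 25.2 to 26.2 in IFOT-M and 22.7 to 24.8 in VIVO, without overlap. The median difference of these 10 was 0.14, and 0.04 with the median of each gene's bin taken off. Of 8 leukocyte markers 4 lay below the median and 0 were called, with sums of 30.2 to 35.6 in IFOT-M and 31.0 to 33.1 in VIVO. Of 6 sperm markers 5 lay below it and 0 were called, with sums of 22.9 to 24.6 in IFOT-M and 22.8 to 25.4 in VIVO. The bins give only 0.27 lower and 0.18 higher for the leukocyte markers and 0.19 and 0.13 for the sperm markers. All 8 markers of oviduct and uterus lay below the median level, where the bins give 0.11 lower and 0.18 higher. They had sums of 23.8 to 25.2 in IFOT-M and 21.7 to 25.5 in VIVO. Of these PAEP, a lipocalin of the uterine glands, was higher at 2.03, 1.91 and 1.97 in IFOT-M than at 1.18, 1.15 and 1.77 in VIVO (FDR = 0.095), a call that was lost after quantile or loess normalization, without the level filter, in the unmoderated model, with RIN as a covariate, with the replicate block and in each fit with 1 array left out except that without VIVO replicate 3. Of 4 red cell markers 1 lay below the median level and HBA was lower (-0.89, FDR = 0.0451), though not without IFOT-M replicate 3 (-0.69), VIVO replicate 2 (-0.88) or VIVO replicate 3 (-0.83). The bins of these 4 give 0.28 lower, and the 4 summed to 19.5 to 25.9 in IFOT-M and 23.3 to 28.8 in VIVO. An array has no true zero, and the part of such cells in the results above was not tested.

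Few genes with a name were higher in IFOT-M blastocysts. DPPA4, a chromatin protein of pluripotent cells, had 7.36, 7.58 and 7.45 in IFOT-M and 6.26, 6.59 and 6.50 in VIVO, which is 2.01-fold higher (FDR = 0.00112), and its other probe set gave 1.09. The groups did not overlap, and DPPA4 was also higher in IFOT-M than in VITRO (0.74, FDR = 0.0043). AQP11, an aquaporin of inner membranes, had 5.0, 4.91 and 5.07 in IFOT-M and 4.16, 4.07 and 4.11 in VIVO (difference 0.88, FDR = 0.0207), while VITRO averaged 3.16 (IFOT-M minus VITRO 1.83, FDR = 0.000499). CLDN1, a claudin of tight junctions, was higher by 0.78 (FDR = 0.0576), which missed the threshold when any 1 array other than IFOT-M replicate 3 was left out. Of 29 measured genes of blastocoel pumps, water channels and junctions 3 were higher and 4 lower, where the bins give 1.57 and 4.51. HRK, which promotes apoptosis, was higher by 0.88 (FDR = 0.0179), and HERC5, an interferon-induced ligase, by 0.79 (FDR = 0.0147). Of 24 measured apoptosis genes of the BCL2 list 1 was higher and 1 lower, where the bins give 0.72 and 1.85. Of 24 measured interferon response genes 1 was higher and 0 lower, near the 0.49 and 0.52 that the bins give. RPS12 was higher by 0.83, but ribosomal protein genes have near-identical copies, and a probe set may read several of them. Of 28 measured ribosomal protein genes 1 was higher and 5 lower, where the bins give 3.04 and 6.46.

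MicroRNA precursors were the list with the most members higher. Of 363 measured precursors 40 were higher and 4 lower, where the bins give 9.45 higher and 19.1 lower. The median difference was 0.19, and 0.13 with bin medians taken off. Against VIVO 73 were higher in IFOT-IM and 182 in VITRO, where 7.95% and 25.1% of all probe sets were higher. In the direct comparison 53 were lower and 8 higher in IFOT-M than in VITRO, against 8.38% and 12.9% of all probe sets. The probe sets read the precursor or its host transcript, not the mature microRNA. MIRLET7A-1, a precursor of let-7a, had 6.24, 6.22 and 6.50 in IFOT-M and 5.08, 4.65 and 4.96 in VIVO (difference 1.42, FDR = 0.000409). MIRLET7A-2, which gives the same mature microRNA, had 5.06, 4.58 and 5.08 in IFOT-M and 2.85, 3.53 and 3.49 in VIVO (difference 1.62, FDR = 0.00243). In both the groups were apart, as in all 159 DEGs with 1 symbol. MIR143 was higher by 1.01 (FDR = 0.00214) and MIR2315 lower by -1.56 (FDR = 9.5e-05). The other large rises were MIR2390 at 1.04, MIR874 at 1.10 and MIR2369 at 1.19, TAAR6 and OR1AH3, receptors of the trace amine and odorant families, at 1.56 and 1.07, the RefSeq pseudogenes LOC505058 and LOC100300748 at 1.56 and 1.02, and LOC100139881 at 1.06. TAAR6 had 5.05, 4.84 and 4.65 in IFOT-M and 4.01, 3.78 and 2.07 in VIVO. It stood at 0.95 and did not pass without VIVO replicate 3, nor did it pass without any 1 IFOT-M array (1.46 to 1.65). MIR874, MIR2369 and OR1AH3 did not pass after quantile normalization, and all 3 lost the call without VIVO replicate 3 (1.03, 0.99 and 1.00). The call was also lost for MIR874 without IFOT-M replicate 1, IFOT-M replicate 3 or VIVO replicate 2, for MIR2369 without IFOT-M replicate 1, IFOT-M replicate 2 or VIVO replicate 1, and for OR1AH3 without IFOT-M replicate 2, IFOT-M replicate 3 or VIVO replicate 2. LOC505058 did not pass without IFOT-M replicate 1 (1.35) or VIVO replicate 3 (1.39), nor LOC100300748 without VIVO replicate 1 (0.94) or VIVO replicate 2 (0.88).

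Across the whole set of DEGs the IFOT-IM and VITRO groups are given beside IFOT-M, with the same VIVO arrays in each comparison. Of the 220 DEGs lower in IFOT-M, IFOT-IM had 210 lower at an FDR below 0.1, where 12.6% of all probe sets were lower, and VITRO had 205, where 22.7% were. Their median difference was -1.19 for IFOT-M, -1.30 for IFOT-IM and -1.35 for VITRO. Of the 123 DEGs higher in IFOT-M, IFOT-IM had 88 higher, against 7.95% of all probe sets, and VITRO had 72, against 25.1%. Without IFOT-IM replicate 1 the counts for IFOT-IM were 197 and 76, where 8.04% of all probe sets were lower and 3.94% higher. In the direct comparison of IFOT-M with VITRO, 0.311% of the probe sets were lower and 1.61% higher with a fold change above 2. Being chosen in IFOT-M with shared VIVO arrays, these counts are a description and carry no test.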

How the data were processed

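Pools of bovine blastocysts in 4 groups of 3 were hybridised to 12 Affymetrix arrays (Bovine Gene 1.0 ST). The authors processed the raw intensities by RMA in Expression Console, and the deposited log2 values for 26773 probe sets were used. The log2 scale was taken from their range, and it stayed unknown why the arrays differ in spread although RMA includes quantile normalization. No genome build is given in the sources used here. The 2356 probe sets (8.8%) with the lowest mean over the 12 arrays were removed and 24417 tested. All 4 groups were fitted together with limma 3.58.1 (statmod 1.5.0) in R 4.3.3, with 8 residual degrees of freedom, moderated variances, two-sided tests and Benjamini-Hochberg adjustment. Tables and plots were made in Python 3.11.15 with numpy 2.4.6, pandas 2.3.3 and matplotlib 3.10.9. DEGs were called at an FDR below 0.1 together with an unadjusted p below 0.05 and a change of more than 2-fold.

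Of all probe sets 18457 carried 1 gene symbol, 688 several and 7628 none in the platform annotation. Only probe sets with 1 symbol gave gene names, by the probe set with the highest mean, and list names were matched through RefSeq synonyms. A gene was counted as measured if such a probe set passed the level filter. The 42 gene lists and 8 marker lists and the genes to describe were chosen with earlier results of these data known. Named were the 10 largest falls and 10 largest rises among DEGs without overlap, all cholesterol synthesis and marker genes, up to 6 genes with the smallest FDR of every other list, and, among those with an FDR below 0.1, the 6 genes furthest above and the 6 furthest below their level bin. The text describes a selection of these. The pipeline was tested on simulated data. With 3 arrays a group the number of arrays limits the precision, and an exact permutation test of 1 gene could not reach 0.05. Alternatives were other fits, filters, normalizations and thresholds, RIN as a covariate, array weights, a replicate block, other level bins and leaving out each IFOT-M and VIVO array, to which the fit without IFOT-IM replicate 1 was added after seeing the data. Raw intensities and promoter sequences were not analysed here.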

Additional observations from a re-analysis of the deposited data

Results flagged for a closer look

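Among the named genes, 11 differed by more than 2-fold between IFOT-M and VITRO blastocysts in the direct comparison (limma, FDR below 0.1), so that the difference from VIVO was not of the same size in both groups. The values are IFOT-M minus VITRO. SQLE stood at -1.23, MSMO1 at -1.07, CYP51A1 and DHCR7 both at -1.06, FADS1 at -1.03 and S100A2 at -1.13. LOC768028 stood at -1.97. On the higher side were AQP11 at 1.83, GALNT1 at 1.09, GGPS1 at 1.09 and VAMP7 at 1.02, the last on a probe set with which its other probe set disagrees. For IFOT-M against IFOT-IM 0 of the 330 named genes passed limma's FDR of 0.1, and the smallest FDR over all probe sets was 0.321. Single samples far from their group were not looked for gene by gene, as each group has 3 arrays.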

How the results depend on the processing

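No called gene named here changed its direction under any alternative run. Of 210 named genes past an FDR of 0.1, 132 passed under every setting in which they were tested. Over all probe sets the count of 343 DEGs ran from 250 after quantile normalization to 410 with array weights. Quantile normalization gave 118 lower DEGs and 6 lower amino acid transporters, against 220 and 13. Cyclic loess gave 140 lower and 190 higher DEGs, against 220 and 123. An unmoderated linear model of the 2 groups gave 74 higher DEGs. With 1 probe set per gene symbol there were 149 DEGs, 135 lower and 14 higher. With array weights 11 genes of the ATF4 list were lower, against 6, and at an FDR below 0.05 6 amino acid transporters. Without any 1 IFOT-M or VIVO array there were 285 to 362 DEGs, 188 to 238 lower and 96 to 124 higher, with 5 to 8 amino acid transporters, 5 to 6 genes of the ATF4 list and 7 of cholesterol synthesis lower. Without IFOT-IM replicate 1, chosen after seeing the data, there were 355 DEGs, 227 lower and 128 higher. The cause of these shifts was not tested. Counts of lower genes moved by over 1.5 times in 18 of 50 lists after quantile normalization, 12 after cyclic loess and 10 to 20 without any 1 array. The level-matched medians changed by less than the spread between replicates with 10 bins or bins over 12 arrays. The replicate numbers did not pair the arrays, as deviations of same-numbered IFOT-M and VIVO arrays correlated at -0.01, -0.01 and 0.02, and with the replicate block there were 356 DEGs, 226 lower and 130 higher. No list's count of lower genes moved by over 1.5 times under the block, while counts of higher genes changed between 0 and 1 in 4 lists. Whether a low signal hid a fall in sterol genes such as LSS was not tested.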
